A study of Mus musculus with 6 samples.

Results

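The 8 genes described here encode transcription factors that establish or keep hepatocyte identity: Hnf4a, Nr5a2, Cebpa, Cebpb, Onecut1, Onecut2, Hhex and Prox1. They were taken by gene symbol from 34745 genes measured in primary mouse hepatocytes, and all 8 were among the 14417 genes with enough counts for testing. The cells came from 12 week old male mice whose Foxa2 gene is flanked by loxP sites (FOXA2f/f), and every mouse received CCl4, a hepatotoxin that causes liver fibrosis, 2 times per week at 0.25 ml/kg for 4 weeks. The 3 FOXA2f/f+CCl4 libraries came from mice injected with AAV8-TBG-Control, and the 3 FOXA2H-KO+CCl4 libraries from mice injected with AAV8-TBG-Cre, each virus 2 weeks before the first CCl4 dose. The TBG promoter directs Cre to hepatocytes, so other liver cells in a preparation keep Foxa2. Mice without CCl4 were not analysed here, and the expression of Cre cannot be told apart from the loss of Foxa2. The labels number the libraries 1, 2 and 4 in each group without saying that each is a separate mouse, so the p-values measure the spread between these libraries only.

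Hepatocyte identity is held by a small set of transcription factors that bind each other's promoters as well as the genes of liver metabolism. HNF4A and NR5A2 (LRH-1) are nuclear receptors, C/EBPalpha and C/EBPbeta are basic leucine zipper proteins, and ONECUT1 (HNF6), ONECUT2, HHEX and PROX1 carry a homeodomain. FOXA2 is a forkhead protein that opens chromatin at liver enhancers and acts beside several of them. The comparison asks whether the mRNA of these partner factors differed when Foxa2 was deleted in hepatocytes of fibrotic livers.

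Hhex and Prox1 were the factors whose FOXA2H-KO libraries did not overlap with the FOXA2f/f libraries, so the sequences before their first transcription starts are shown, followed by the 3 matches to motifs of the network found in the windows of all factors. Sequences were taken from RefSeq on GRCm38.p6 and run 5′ to 3′ on the strand of the gene. Parts annotated as exons were left out of the first 2 stretches, which hold no match, and capitals in the other 3 mark the matched motif.
Hhex, chr19:37434657-37434809, plus strand: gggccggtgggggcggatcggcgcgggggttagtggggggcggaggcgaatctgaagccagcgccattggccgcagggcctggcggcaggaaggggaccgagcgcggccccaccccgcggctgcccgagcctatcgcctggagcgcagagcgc
Prox1 first start, chr1:190170828-190171077, minus strand: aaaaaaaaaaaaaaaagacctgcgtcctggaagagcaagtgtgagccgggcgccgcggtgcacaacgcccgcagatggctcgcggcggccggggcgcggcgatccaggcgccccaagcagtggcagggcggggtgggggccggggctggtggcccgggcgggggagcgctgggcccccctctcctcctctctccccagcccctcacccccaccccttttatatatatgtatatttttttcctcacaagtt
Prox1 second start, chr1:190169617-190169646, minus strand: tatttgcttgcTGTTTGCatacctttcact
Hnf4a first start, chr2:163506786-163506815, plus strand: gtgattagaagaATCAATaagataaccggg
Nr5a2 second start, chr1:136953851-136953880, minus strand: tgttttgTTTTGCAAagcttggtctacaag

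In the 250 bases before each RefSeq start, both strands were searched for the forkhead core TGTTTAC, its variant form TGTTTGC and the further variant form TATTTAC. They were also searched for ATCAAT, which ONECUT factors bind, TTGCNNAA of C/EBP factors, CAAGGNCA of NR5A2 and CAAAGTCCA of HNF4A. A RefSeq window was matched for 7 of the 8 factors, all but Onecut2. The window of the second Prox1 start held the forkhead match TGTTTGC at base -120, inside the stretch printed above. The part of this window without annotated exons ends at base -119, so most of the match lies in an annotated exon. That of the first Hnf4a start held ATCAAT at base -59, and that of the second Nr5a2 start held a C/EBP match at base -243. The windows of Hhex, Cebpa, Cebpb and Onecut1 held none of the 5 motifs, and no match overlapped another. Among 32851 promoter windows of the same length, 9.73% held a forkhead core, 6.72% ATCAAT, 9.56% TTGCNNAA, 5.53% CAAGGNCA and 0.384% CAAAGTCCA. A match is a run of letters and not a measured binding site.

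Counts summed to between 20983455 and 28327765 per library, and the scaling factors of edgeR's TMM method lay between 0.87 and 1.12. Values called CPM below are counts set against library sizes adjusted by TMM, with no correction for length, and the FPKM values that the authors deposited are scaled to the total count and to transcript length. Foxa2, read first as a check of the labels, lay between 13.5 and 18.99 CPM in FOXA2f/f and between 0.762 and 1.62 CPM in FOXA2H-KO libraries (log2 fold change -3.85). With an adjusted p of 0.0313 from edgeR's quasi-likelihood test it was the only one of the 14417 genes, or 0.00694%, to pass an adjusted p under 0.05 and a 2-fold difference. Its paralogs Foxa1 (log2 fold change 0.13) and Foxa3 (0.10) did not pass. The 10 hepatocyte markers summed to between 118188 and 174810 CPM, and no list of markers of another liver cell type was silent in any library.

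Per transcript length, Hnf4a was the most abundant of the 8 factors in both groups. It averaged 65.4 ± 3.49 FPKM in FOXA2f/f and 68.2 ± 4.88 FPKM in FOXA2H-KO libraries (SD, n = 3, as for all values below), above 96.7% of the genes tested. Cebpa followed at 39.9 ± 8.94 FPKM in FOXA2f/f libraries, and Cebpb at 33.9 ± 9.73 FPKM. Hhex stood at 18.4 ± 2.08 FPKM, Prox1 at 7.19 ± 2.54 FPKM and Nr5a2 at 6.19 ± 0.115 FPKM. The ONECUT factors were lowest, Onecut2 at 2.32 ± 0.597 FPKM and Onecut1 at 2.15 ± 1.81 FPKM, which is above 51.2% and 42.5% of the genes tested when all 6 libraries are averaged. Neighbours in this order overlapped in 3 places, between Cebpa and Cebpb, between Prox1 and Nr5a2 and between Onecut2 and Onecut1.

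The order in FOXA2H-KO libraries differed from this at 4 of the 8 places. Cebpb, at 46.6 ± 12.8 FPKM, stood before Cebpa, at 43.6 ± 3.79 FPKM, but was above it in 2 of 3 libraries. Prox1, at 15.6 ± 2.82 FPKM, stood before Hhex, at 13.4 ± 2.70 FPKM, although it was above Hhex in 1 of the 3 FOXA2H-KO libraries and their ranges overlapped. In FOXA2f/f libraries Hhex had been above Prox1 in 3 of 3. Nr5a2 (7.14 ± 0.899 FPKM), Onecut2 (2.89 ± 0.378 FPKM) and Onecut1 (1.62 ± 0.674 FPKM) kept their places. These orders rest on the gene lengths behind the deposited FPKM values, which differ from those of GENCODE M21 for 7 of the 8 genes, as for Hhex with 3007 against 5056 bases. With the GENCODE M21 lengths, Nr5a2 came before Prox1 in FOXA2f/f libraries, and in FOXA2H-KO libraries Cebpa came before Cebpb and Nr5a2 before Hhex.

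**Figure D1:**
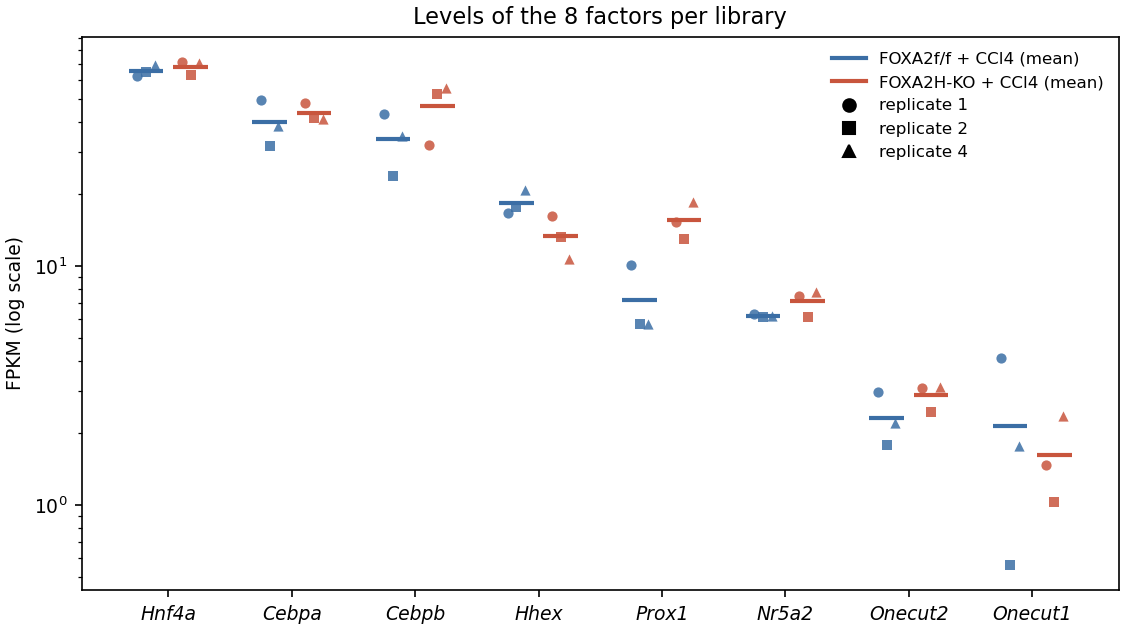
FPKM of the 8 factors in each library (log axis), FOXA2f/f and FOXA2H-KO side by side, with the mean of each group as a bar. Hnf4a is highest in all 6 libraries, Prox1 is higher in every FOXA2H-KO library than in every FOXA2f/f library, Hhex is lower in every one, and Onecut1 spreads from 0.563 to 4.11 FPKM.

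None of the 8 factors passed the adjusted test: 0 had an adjusted p under 0.05 in edgeR's quasi-likelihood test, where 0.00694% of all genes tested did. DESeq2, edgeR's exact test and limma on the FPKM values likewise called 0 of the 8. Among all genes they called 75 of 22551, 64 of 14417 and 0 of 10278, so few calls were made for any genes. At an unadjusted p under 0.05 stood 2 of the 8, against 5.17% of all genes tested: Hhex, lower in FOXA2H-KO as were 3.18% of all genes, and Prox1, higher as were 1.98%. The same 2 factors differed by at least 1.5-fold, against 9.76% of all genes tested. The groups did not overlap for the same 2 factors, 1 in each direction, against 10.5% of all genes tested in either direction, 4.54% with FOXA2H-KO above and 5.96% with FOXA2H-KO below. Log2 fold changes were above 0 for 4 factors and below 0 for 4, with a median of 0.03 beside -0.01 for all genes tested. Scaling by library size alone put these medians at 0.17 and 0.10.

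**Figure D2:**
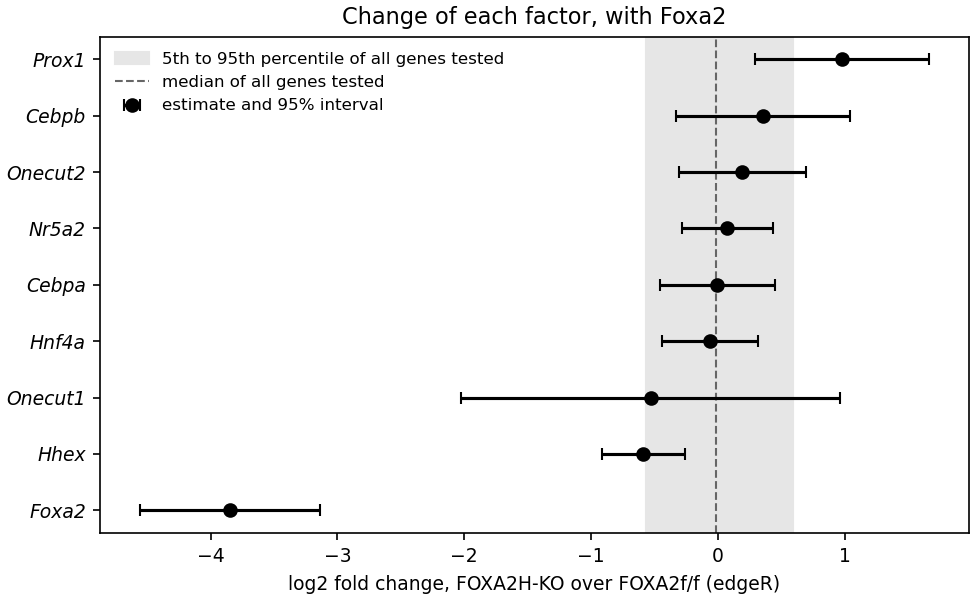
Log2 fold change of each factor, FOXA2H-KO over FOXA2f/f, from edgeR's quasi-likelihood fit, with 95% intervals as bars, Foxa2 for reference, the median of all genes tested as a dashed line and their 5th to 95th percentile as a grey band. The intervals of Hhex (-0.91 to -0.26) and Prox1 (0.29 to 1.67) lie on 1 side of 0, and those of the other 6 factors include 0, with the widest for Onecut1.

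Hnf4a, the nuclear receptor that controls apolipoproteins, coagulation factors and much of hepatocyte metabolism, is at chr2:163506808-163572910 on the plus strand (ENSMUSG00000017950). It was counted at 564, 615 and 513 CPM in FOXA2f/f replicates 1, 2 and 4, and at 524, 507 and 588 CPM in FOXA2H-KO replicates 1, 2 and 4. The libraries of both groups were interleaved. The log2 fold change was -0.06 (SE 0.16, 95% interval -0.44 to 0.31), a fold of 0.956 with an interval of 0.737 to 1.24 and an adjusted p of 0.992 in edgeR. This interval is among the narrowest of the 8, and it does not contain a loss to below 0.737 of the FOXA2f/f level.

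Nr5a2 encodes LRH-1, which drives bile acid and cholesterol genes, and lies at chr1:136842571-136960448 on the minus strand (ENSMUSG00000026398). It stood at 61.5, 62.0 and 49.1 CPM in FOXA2f/f libraries and at 59.0, 53.1 and 69.6 CPM in FOXA2H-KO libraries. The groups overlapped, and the spread inside each was larger than the distance between their means. This gave a log2 fold change of 0.07 (SE 0.15, 95% interval -0.28 to 0.43, adjusted p 0.991 in edgeR).

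Cebpa, the C/EBP factor of the resting and metabolically mature hepatocyte, has 1 exon at chr7:35119293-35121928 on the plus strand (ENSMUSG00000034957). It was at 260, 174 and 166 CPM in FOXA2f/f libraries and at 204, 195 and 199 CPM in FOXA2H-KO libraries. The means were nearly equal, 200.2 ± 52.0 against 199.6 ± 4.59 CPM, while the FOXA2f/f libraries spread far more, with a coefficient of variation of 26.0% against 2.30%. The difference of these spreads was not tested. On the log2 scale the difference was -0.0047 (SE 0.20, 95% interval -0.46 to 0.45). Without FOXA2f/f replicate 1, the library at 260 CPM, it was 0.24.

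Cebpb encodes the C/EBP factor of the acute phase response and of liver regeneration, which macrophages also express. It has 1 exon at chr2:167688915-167690418 on the plus strand (ENSMUSG00000056501). Its level was 71.4, 41.2 and 47.2 CPM in FOXA2f/f libraries and 42.9, 77.1 and 84.4 CPM in FOXA2H-KO libraries. In each group 1 library stood with the other group, FOXA2f/f replicate 1 on the high side and FOXA2H-KO replicate 1 on the low side. The estimated log2 fold change was 0.35 (SE 0.30, 95% interval -0.33 to 1.04, adjusted p 0.983 in edgeR), and it was 0.64 without FOXA2f/f replicate 1. Macrophage markers summed to 1148, 525 and 2495 CPM in FOXA2f/f libraries and to 1887, 1724 and 1139 CPM in FOXA2H-KO libraries. These sums overlapped between groups, and the part of macrophages in the Cebpb level was not tested. In GENCODE M21, 20.7% of the Cebpb exon is shared with exons of Tmem189 on the opposite strand, whose counts summed to 1082 over the 6 libraries, and the use of strand in counting is not given in the sources used here.

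Since both C/EBP proteins bind the same DNA motif, the Cebpa to Cebpb ratio was taken within each library, where scaling between libraries cancels. The ratio of FPKM values was 1.14, 1.33 and 1.11 in FOXA2f/f libraries and 1.5, 0.796 and 0.741 in FOXA2H-KO libraries. In FOXA2H-KO replicates 2 and 4 Cebpb exceeded Cebpa in FPKM, which occurred in no FOXA2f/f library, but replicate 1 had the highest ratio of all 6. Whether a ratio lies above or below 1 depends on the gene lengths used. For Cebpa the length behind the FPKM values is 4787 bases against 2636 in GENCODE M21, and for Cebpb it is 1504 in both. With the GENCODE M21 lengths Cebpa had the higher mean in both groups. The mean log2 ratio was 0.25 ± 0.14 against -0.06 ± 0.56, a difference of -0.31 with an exact two-sided permutation p of 0.4, where 0.1 is the smallest that 3 against 3 libraries allow. Leaving out FOXA2H-KO replicate 1 gave -0.63, and leaving out FOXA2H-KO replicate 4 gave -0.12.

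Onecut1, or HNF6, acts in hepatocyte and bile duct development and in glucose and bile acid metabolism. The gene lies at chr9:74861921-74891781 on the plus strand (ENSMUSG00000043013). Its counts were 544, 61 and 258 in FOXA2f/f libraries and 185, 130 and 265 in FOXA2H-KO libraries, or 23.4, 3.34 and 8.20 against 6.80, 5.21 and 12.3 CPM. The highest and the lowest library were both FOXA2f/f, and all 3 FOXA2H-KO libraries lay between them. The coefficient of variation was 89.7% in FOXA2f/f and 45.6% in FOXA2H-KO libraries, beside 5.90% and 7.19% from counting error alone. Its biological coefficient of variation, 54.1%, was above that of 97.4% of the genes tested. Its log2 fold change was -0.53 (SE 0.64, 95% interval -2.02 to 0.96, adjusted p 0.983 in edgeR) and turned to 0.48 without FOXA2f/f replicate 1. In GENCODE M21, 52.8% of its exonic bases are shared with Gm20649 on the same strand, which had 0 counts in every library.

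Onecut2, the partner of Onecut1 in hepatocyte and biliary development, is at chr18:64340020-64400987 on the plus strand (ENSMUSG00000045991). It was counted at 83.2, 52.4 and 50.7 CPM in FOXA2f/f libraries and at 70.5, 61.7 and 80.3 CPM in FOXA2H-KO libraries. As for Cebpa, Cebpb and Onecut1, FOXA2f/f replicate 1 was the highest library of its group. The log2 fold change was 0.19 (SE 0.22, 95% interval -0.31 to 0.69, adjusted p 0.983 in edgeR), and 0.47 without that library. Onecut2 had more counts than Onecut1 in every library, and the CPM scale does not correct for its long transcript.

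Hhex, a homeobox gene needed for the liver bud and expressed in adult hepatocytes and in endothelium, is at chr19:37434810-37440731 on the plus strand (ENSMUSG00000024986). It was at 55.2, 61.3 and 56.1 CPM in FOXA2f/f libraries and at 43.1, 39.1 and 32.5 CPM in FOXA2H-KO libraries. Every FOXA2H-KO library was below every FOXA2f/f library, on the CPM and the FPKM scale. In FPKM the nearest libraries were close, FOXA2H-KO replicate 1 at 16.1 and FOXA2f/f replicate 1 at 16.7 FPKM. The coefficient of variation in FPKM was 11.3% in FOXA2f/f and 20.2% in FOXA2H-KO libraries. The log2 fold change was -0.59 (SE 0.14, 95% interval -0.91 to -0.26), a fold of 0.665 with an interval of 0.531 to 0.834. The unadjusted p of 0.00332 ranked 78 among the genes tested, and the adjusted p was 0.613 in edgeR, so that the difference did not pass. The biological coefficient of variation was 15.4%. Endothelial markers, whose cells also express Hhex, summed to 464, 282 and 953 CPM in FOXA2f/f libraries and to 544, 582 and 608 CPM in FOXA2H-KO libraries. These endothelial sums overlapped between groups. The part of endothelial cells in the Hhex level was not tested, and in bulk RNA fewer cells of a type and less RNA per cell cannot be told apart.

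Prox1, a homeobox gene of hepatocyte, bile duct and lymphatic development, is at chr1:190118035-190170714 on the minus strand (ENSMUSG00000010175). It was counted at 113, 66.8 and 52.4 CPM in FOXA2f/f libraries and at 138, 129 and 190 CPM in FOXA2H-KO libraries. Every FOXA2H-KO library was above every FOXA2f/f library, with FOXA2f/f replicate 1 nearest to them. The log2 fold change was 0.98 (SE 0.30, 95% interval 0.29 to 1.67), a fold of 1.97 with an interval of 1.22 to 3.17, and the estimate was 1.37 without FOXA2f/f replicate 1. The unadjusted p was 0.0114, ranked 214, and the adjusted p was 0.771 in edgeR. Lymphatic endothelium expresses Prox1 too. The endothelial sums given for Hhex overlapped between groups, but they come from a general endothelial list and do not single out lymphatic cells. The part of endothelial cells in the Prox1 level was not tested. Its annotated antisense gene Prox1os shares 1.59% of the exonic bases and had 166 counts over the 6 libraries.

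Leaving out each library in turn kept the sign of Hhex, from -0.68 to -0.48, and of Prox1, from 0.76 to 1.37. Over all 14 alternative fits both stayed at an unadjusted p under 0.05, with a highest value of 0.0344 for Hhex and 0.0440 for Prox1. Their adjusted p ranged from 0.114 to 1.00 and from 0.158 to 1.00, the lowest in DESeq2 for both. Cebpb, from 0.18 to 0.64, and Onecut2, from 0.06 to 0.47, also kept their sign when each library was left out. Onecut1 moved most, from -0.96 to 0.48, whereas Hnf4a stayed between -0.13 and 0.00.

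**Figure D3:**
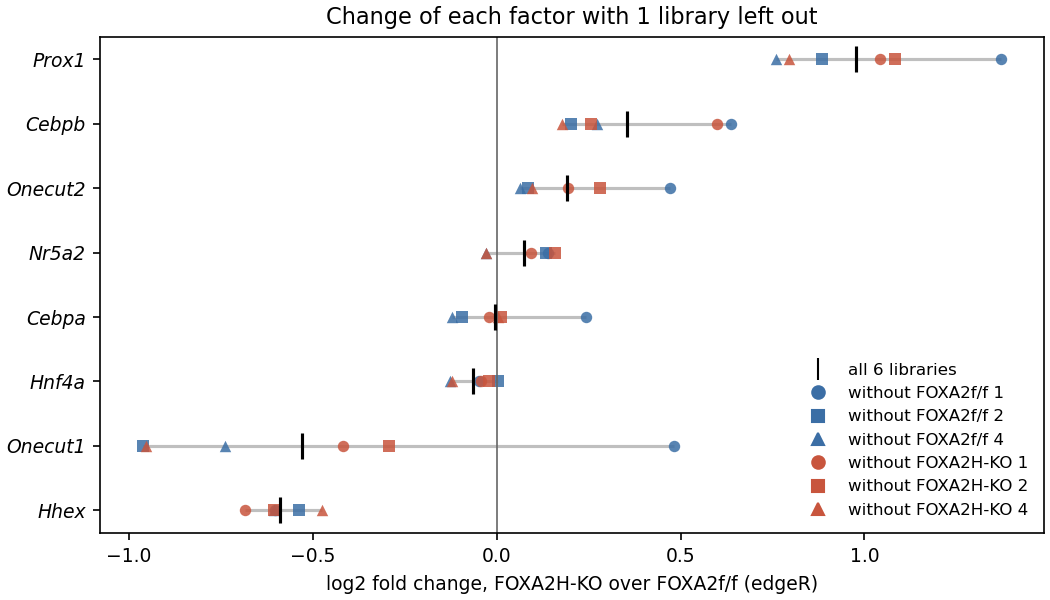
Log2 fold change of each factor, FOXA2H-KO over FOXA2f/f, with all 6 libraries and with each library left out (edgeR). Hhex stays below 0 and Prox1 above 0 in every fit, while Onecut1 runs from -0.96 to 0.48.

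Some libraries stood high or low for several factors at once. FOXA2f/f replicate 1 was the highest of its group for 5 of the 8 factors in CPM, and FOXA2f/f replicate 4 was below its group mean for 8 of 8. Among FOXA2H-KO libraries, replicate 4 was the highest for 6 factors and replicate 2 the lowest for 6. The pattern depended in part on scaling: in FPKM, which carries no TMM factor, FOXA2f/f replicate 4 was below its group mean for 4 of 8 and replicate 2 for 8 of 8. FOXA2f/f replicate 4 also had the highest endothelial and macrophage sums and a stellate cell sum of 2589 CPM, against 1123 and 934 CPM in the other FOXA2f/f libraries. In FOXA2H-KO libraries the stellate sum was 2530, 1557 and 1604 CPM. The part of other cells in the levels of the factors was not tested.

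For each factor, the gene with the most similar profile over the 6 libraries was sought among 8294 genes with a mean of at least 10 CPM, by the root mean square (RMS) difference of log2 CPM centred on each gene's mean. Lrig1 was nearest to Hhex, with an RMS of 0.068, and Acnat2 to Prox1, with 0.17. Onecut1 was nearest to Saa2, an acute phase serum amyloid gene, with an RMS of 0.13, although Onecut1 itself deviated from its mean by 0.88. Saa2 stood at 118, 14.6 and 37.3 CPM in FOXA2f/f libraries and at 33.9, 20.3 and 53.3 CPM in FOXA2H-KO libraries, the same order of libraries as Onecut1. Cebpb was nearest to Nnmt (0.093), a nicotinamide methyltransferase of the hepatocyte, and Onecut2 to the adhesion molecule gene Alcam (0.10). Hnf4a was nearest to Dxo (0.020), Cebpa to Hnrnpd (0.055) and Nr5a2 to Larp1 (0.043). These matches are descriptions over 6 libraries, picked as the closest of many candidates.

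Relatives of the 8 factors were measured in a list of 8 paralogs, of which 6 had enough counts. None of the 6 passed, 4 were higher and 2 lower, and the median log2 fold change was 0.11. Cebpg, a C/EBP protein without a transactivation domain, was at 59.2 ± 7.86 and 59.0 ± 3.99 CPM. Cebpd was at 13.9 ± 5.65 and 16.7 ± 4.38 CPM, and Ddit3, the stress-induced C/EBP relative CHOP, at 6.82 ± 2.71 and 7.88 ± 3.48 CPM. Among 16 other liver transcription factors and cofactors, Foxa2 alone passed, 8 were higher and 8 lower, and the median was 0.03. Creb3l3 stood at 261 ± 41.1 and 238 ± 34.0 CPM, Klf15 at 161 ± 22.3 and 146 ± 22.4 CPM, and the bile acid receptor gene Nr1h4 at 94.8 ± 26.2 and 93.0 ± 13.5 CPM. The most abundant factors of this network thus differed by less than the spread between libraries.

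Textbook target genes were then counted for each family, with 0 genes past the adjusted test in edgeR other than Foxa2. Of 21 HNF4A targets, 6 were higher and 15 lower, with a median log2 fold change of -0.17, 4 lower at an unadjusted p under 0.05 (3.18% of all genes tested) and 3 with FOXA2H-KO below all FOXA2f/f libraries (5.96% of all genes tested). Apob was at 8158 ± 1958 and 8814 ± 860 CPM, Apoa1 at 6424 ± 906 and 5923 ± 1131 CPM, and Ttr at 4958 ± 1206 and 4550 ± 249 CPM. These 3 major secretory products overlapped between groups. Of 14 C/EBP targets, 3 were higher and 11 lower, with a median of -0.12. At an unadjusted p under 0.05, 1 of them was lower, beside 3.18% of all genes tested, and this was G6pc, also counted among the HNF4A targets. Albumin (Alb) stood at 109009 ± 17938 and 100115 ± 14635 CPM, the urea cycle gene Cps1 at 5970 ± 1809 and 5490 ± 410 CPM, and haptoglobin (Hp) at 3892 ± 1144 and 3198 ± 481 CPM. With scaling by library size alone the medians of the HNF4A and C/EBP targets were -0.03 and 0.00, beside 0.10 for all genes tested, so that both lists were below the median of all genes under either scaling. The hepatocyte markers, several of which are in these lists, were also below it, at -0.12 by TMM and 0.01 by library size alone.

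Of 9 NR5A2 targets, 2 were higher and 7 lower, with a median of -0.32 (-0.19 by library size alone), 3 lower at an unadjusted p under 0.05 and 2 with FOXA2H-KO below all FOXA2f/f libraries, beside 3.18% and 5.96% of all genes tested. Of these 3, Cyp8b1 was at 71.4 CPM in FOXA2f/f replicate 2 and at most at 4.38 CPM in the other 5 libraries. The bile salt export pump gene Abcb11 was at 449 ± 125 and 356 ± 76.4 CPM, Apom at 324 ± 69.9 and 260 ± 43.4 CPM, and the HDL receptor gene Scarb1 at 233 ± 42.1 and 223 ± 36.4 CPM. The sterol exporter genes Abcg5 (log2 fold change -1.01) and Abcg8 (-0.68), named after their values were seen, were the 2 without overlap in CPM, and Abcg8 overlapped when scaled by library size alone. Of 7 ONECUT targets other than Hnf4a, 1 was higher and 6 lower, with a median of -0.10 (0.04 by library size alone), 2 of them lower at an unadjusted p under 0.05 beside 3.18% of all genes tested. These 2 were G6pc and Foxa2, the deleted gene itself. G6pc, the last enzyme of glucose release, was at 618 ± 412 and 268 ± 94.1 CPM (log2 fold change -1.20, adjusted p 0.918, edgeR). Cyp7a1, the rate-limiting enzyme of bile acid synthesis, was at 63.6 ± 43.7 and 60.9 ± 22.3 CPM. G6pc and Cyp7a1 spread widely among FOXA2f/f libraries, and G6pc is shared by the HNF4A, C/EBP and ONECUT lists. FOXA2 itself is known to bind several genes of these lists, so a target does not report on 1 factor alone.

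**Figure D4:**
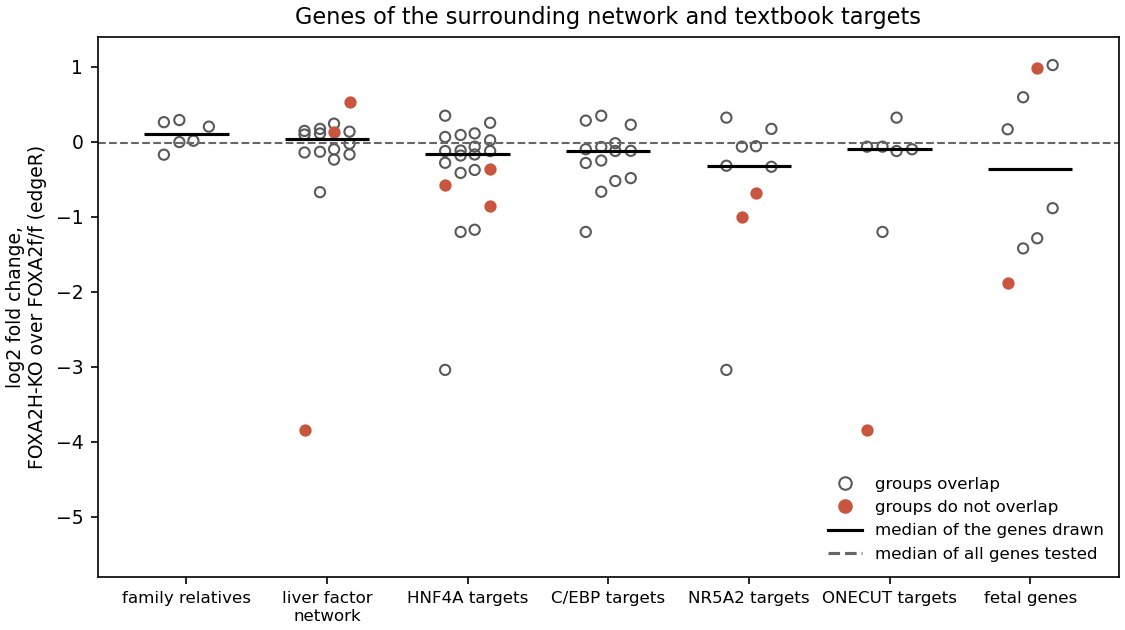
Log2 fold changes, FOXA2H-KO over FOXA2f/f (edgeR), of the tested genes in each list, without the 8 factors themselves. Filled points are genes whose groups do not overlap, solid bars are list medians and the dashed line is the median of all genes tested; Foxa2, at -3.85, is the lowest point of the liver factor and ONECUT lists.

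Fetal and dedifferentiation genes, which a loss of identity factors is known to release, were split in direction. Of 8 tested, 4 were higher and 4 lower, none passed, and the median log2 fold change was -0.36. Afp, the fetal albumin relative, was at 44.5 ± 23.8 and 12.0 ± 1.42 CPM (log2 fold change -1.89, SE 0.39, adjusted p 0.579, edgeR), with all FOXA2H-KO libraries below. Spp1, or osteopontin, was at 246 ± 96.9 and 500 ± 231 CPM (log2 fold change 1.02), with overlapping groups. Cd24a was at 4.77 ± 2.70 and 9.49 ± 2.71 CPM (log2 fold change 0.98), with all FOXA2H-KO libraries above. Spp1 is also a cholangiocyte gene, and its part from cholangiocytes was not tested.

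By list, the median log2 fold change was -0.12 for 10 hepatocyte, -0.07 for 12 endothelial, 0.82 for 8 cholangiocyte, 0.18 for 9 macrophage, 0.22 for 10 stellate cell and -0.13 for 6 neutrophil markers tested. None of these genes passed the adjusted test. The hepatocyte markers were higher for 2 and lower for 8 genes, the cholangiocyte markers for 7 and 1, the stellate cell markers for 9 and 1. The cholangiocyte sum, mostly Spp1, was 390, 182 and 250 CPM in FOXA2f/f and 718, 258 and 594 CPM in FOXA2H-KO libraries. Without Spp1 it was between 18.5 and 37.5 CPM in FOXA2f/f and between 17.2 and 31.1 CPM in FOXA2H-KO libraries. Prom1, the 1 marker that was lower, made up much of it in FOXA2f/f libraries, at 20.3, 6.80 and 17.5 CPM. In FOXA2H-KO libraries Prom1 was a smaller part of it, at 4.78, 4.77 and 3.28 CPM. Of the keratin genes that define cholangiocytes, Krt7 (log2 fold change 1.02) was at 1.12, 0.548 and 1.21 CPM in FOXA2f/f and at 2.83, 1.36 and 1.71 CPM in FOXA2H-KO libraries. Krt19 (log2 fold change 0.91) was at 1.42, 0.987 and 1.14 against 3.38, 1.44 and 1.85 CPM. For both keratin genes every FOXA2H-KO library was above every FOXA2f/f library, and for Prom1 (log2 fold change -1.80) every one was below. Of the 8 cholangiocyte markers tested, 2 were thus above without overlap and 1 below, beside 4.54% and 5.96% of all genes tested. Epcam, Tspan8, Cldn7 and Sox9 were higher with overlap, and Prom1, Krt7 and Krt19 are named after their values were seen. Onecut1, Onecut2, Hhex and Prox1 are also expressed in bile duct cells or their precursors, and the part of such cells in their levels was not tested.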

How the data were processed

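Hepatocyte RNA from FOXA2f/f+CCl4 and FOXA2H-KO+CCl4 mice was sequenced as 3 paired-end poly-A libraries per group. The authors deposited, for each library, raw counts of fragments per gene and FPKM values. Per their processing notes CASAVA 1.8, TopHat2 2.1.0, HTSeq, edgeR and mm10 were used; the annotation and the use of strand are not given in the sources used here. The deposited FPKM values follow from the counts with 1 length per gene and no scaling beyond the total.

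The quasi-likelihood test of edgeR 4.0.16 (R 4.3.3) was run on the counts of 14417 genes kept by filterByExpr, after TMM scaling and with Benjamini-Hochberg adjustment. A gene passed at an adjusted p under 0.05 and at least 2-fold. The standard error is the log2 fold change divided by the square root of F. The deposited whole-series table held the same values and was not used. Positions came from GENCODE M21, promoters from RefSeq GRCm38.p6. The ratio was tested by exact permutation.

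Alternatives were DESeq2 1.42.0, limma 3.58.1 on log2(FPKM + 1) for genes with a mean of at least 1 FPKM, edgeR's exact test, other scalings and filters, a replicate block and each library left out. Orders by GENCODE M21 length and the overlap of groups by library size alone were added after seeing the data. Tests were checked on simulated data.

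The 8 factors, the gene lists and the markers were chosen with earlier results of these data known. Named list genes are the 3 with the highest mean CPM of each list that are not among the 8 factors, any list gene that passed, Foxa1 to Foxa3, and the gene most similar to each factor; others are marked. Replicates differed by more than sampling noise (chi-square 35.9 to 123 times its degrees of freedom).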

Additional observations from a re-analysis of the deposited data

How the results depend on the processing

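Hhex, Prox1, Cebpb and Onecut2 kept their direction under all 14 alternative fits, and 0 of the 8 factors passed the adjusted test under any of them. In the fit used above 2 stood at an unadjusted p under 0.05. Hnf4a, at -0.06, turned to 0.061 by library size alone, 0.059 in limma and 0.0037 without FOXA2f/f replicate 2. Cebpa, at -0.0047, was 0.0053 with upper quartile factors, 0.13 by library size alone, 0.0016 with at least 10 counts in every library, 0.14 in limma, 0.011 without FOXA2H-KO replicate 2 and 0.0043 without FOXA2H-KO replicate 4. Leave-one-out values ran from -0.12 to 0.24 for Cebpa, -0.96 to 0.48 for Onecut1, -0.13 to 0.0037 for Hnf4a and -0.029 to 0.16 for Nr5a2, which was -0.028 without FOXA2f/f replicate 4 and -0.029 without FOXA2H-KO replicate 4. The median of the 8 factors, 0.03, was 0.36 without FOXA2f/f replicate 1. The cause of these shifts was not tested.

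Among all genes, 1 passed in the fit used above, which is not the count of the authors. This compares with 75 in DESeq2, 64 in edgeR's exact test, 2 with no filter, 0 by library size alone and 0 in limma. At an unadjusted p with no fold threshold 745 stood, and 0 to 6 passed when 1 library was left out (6 without FOXA2f/f replicate 2, 0 without any of the other 5). Orders by the median FPKM changed 2 places in FOXA2f/f libraries; GENCODE M21 lengths changed 2 there and 4 in FOXA2H-KO libraries.

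The labels do not say whether equal replicate numbers pair the libraries. Deviations of same-numbered libraries correlated at -0.07, 0.03 and -0.23 over the genes tested, and those of differently numbered libraries between -0.19 and 0.25. With so few libraries these values cannot show whether a pairing existed. With the replicate block 0 genes passed, Cebpa was 0.026 and the exact p of the Cebpa to Cebpb ratio was 0.5. With 3 libraries a group, the intervals of Onecut1, Cebpb and Prox1 each span more than 2-fold, and that of Onecut2 just over 2-fold.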

Other observations

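The genes given here, other than Afp, Spp1 and Cd24a, lie outside the naming rule and were chosen after their values were seen. F11, a liver-made clotting factor and HNF4A target, was at 122, 145 and 106 CPM in FOXA2f/f replicates 1, 2 and 4 and at 56.1, 72.9 and 76.7 CPM in FOXA2H-KO replicates 1, 2 and 4 (log2 fold change -0.86, adjusted p 0.579, edgeR's quasi-likelihood test). F7 was at 104, 127 and 82.8 against 67.5, 78.9 and 63.7 CPM, and F12 at 379, 512 and 393 against 301, 365 and 329 CPM. Every FOXA2H-KO library was below every FOXA2f/f library for F11 and F7, also when scaled by library size alone, and for F12 in CPM but not by library size alone. F9 overlapped, at 225, 257 and 175 against 194, 234 and 258 CPM. None of the 4 passed the adjusted test.

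Among the other liver transcription factors, Gata6 was at 12.5, 10.5 and 14.2 CPM in FOXA2f/f and at 18.8, 15.2 and 19.5 CPM in FOXA2H-KO libraries (log2 fold change 0.52, adjusted p 0.836, edgeR), and its groups overlapped when scaled by library size alone. Gata4 overlapped between groups in CPM. The NR5A2 and HNF4A target Cyp8b1, which makes cholic acid, had 71.4 CPM in FOXA2f/f replicate 2 and between 1.60 and 4.38 CPM in the other 5 libraries, so its difference between groups rests on 1 library.

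Afp stood lower in FOXA2H-KO libraries. Of the 8 fetal genes tested, Gpc3 (log2 fold change -1.42), H19 (-1.29) and Dlk1 (-0.89) were also below 0. These 3 had overlapping groups and an adjusted p of at least 0.918 in edgeR. H19 had between 6 and 37 counts per library and Dlk1 between 1 and 27. The other 4 were above 0: Spp1 (1.02), Cd24a (0.98), Tff3 (0.59) and Sox9 (0.17). Zhx2 is known as a repressor of Afp, H19 and Gpc3. It was between 14.4 and 14.6 CPM in FOXA2f/f and between 15.4 and 16.4 CPM in FOXA2H-KO libraries. Its log2 fold change was 0.13 with an adjusted p of 0.983 in edgeR, and its groups overlapped when scaled by library size alone. A link between Zhx2 and these genes was not tested.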
